A study of Arabidopsis thaliana with 9 samples.

Results

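Root tips of the mutant wox5-1 were compared with root tips of Col-0, the wild type, in 5-day-old seedlings of Arabidopsis thaliana, by RNA sequencing of 3 libraries per genotype. The mutant carries an altered WOX5 (WUSCHEL RELATED HOMEOBOX 5). Both groups had 2 days of cold and then grew upright on medium with 1% sucrose, in 16 h of light and 8 h of dark, with no other treatment. The study also sequenced 3 libraries of seu-3, which entered the fit only through the shared estimate of spread. Of 33560 genes listed, the 17258 with a mean of at least 1 FPKM (fragments normalised to transcript length and to the fragments mapped per library) over the 6 wox5-1 and Col-0 libraries were compared. The labels give the tissue as about 1 mm of root tip in one place and about 3 mm in another, do not give the hour of harvest, and do not say whether the 3 samples of a genotype were grown apart, so the p-values speak only for the spread among these samples, which may be technical. Only 1 allele of WOX5 was profiled, and whole tips mix many cell types, so that fewer cells of a type and less RNA per cell cannot be told apart.

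WOX5 encodes a homeobox protein of the quiescent centre, the small group of rarely dividing cells at the root apex. It keeps the stem cells around it from differentiating, above all those of the columella, the central root cap below. Cells leaving this niche divide in the meristem, then elongate, build vacuoles and take on the uptake and defence functions of the mature root, so a piece of root tip samples all of these states at once. WOX5 (chromosome 3, 3527280 to 3528440, plus strand, TAIR10.1) was listed at 0 FPKM in the 3 wox5-1 libraries, against 0.301, 0.461 and 0.524 FPKM in Col-0. At this level it lay below the filter, and the exact two-sided permutation p of 0.1 is the smallest that 3 libraries against 3 can give.

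Differences are means of log2(FPKM + 1) in wox5-1 minus those in Col-0, a scale that compresses the change of weakly expressed genes; folds are ratios of mean FPKM. A gene was called at an adjusted p below 0.05 (limma, Benjamini-Hochberg over all genes tested). By this rule 2393 genes rose (13.9%) and 2306 fell (13.4%), 27.2% in all. A higher mean in wox5-1 was seen for 55.1% of genes, and the median difference of all genes was 0.06. A gene is described as stably higher or lower where it was also called, with the same sign, in each of the 9 fits that leave out 1 library: 431 genes (2.5%) were stably higher and 907 (5.26%) stably lower, 7.75% in all. Smaller counts in a group often rest on single libraries: where leaving out 1 library moved a count of 3 or more by over 1.5 times, the count without it is given, and the number of stable calls is what no omission removed. All genes given with values in each library below had 3 wox5-1 libraries that did not overlap the 3 Col-0 libraries, as 50.2% of all tested genes did, and stood among the stable calls unless said otherwise.

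Some libraries stood apart. Over the 23 pollen transcripts listed, the summed level was 21.3, 14.9 and 95.7 FPKM in wox5-1 replicates 1 to 3. In Col-0 it was 11.1, 11.5 and 13.2 FPKM. The 17 of them below 1 FPKM in every Col-0 library summed to 9.79, 4.16 and 72.8 FPKM in wox5-1. Their sums of 0.407, 0.345 and 0.697 FPKM in Col-0 are low by that choice, so only the wox5-1 libraries can be compared with one another here. In wox5-1, 3, 1 and 6 of the 17 reached 1 FPKM and 6, 8 and 2 were at 0. Ribosomal protein genes took 13.7% of the summed FPKM in wox5-1 replicate 1, 9.74% in replicate 2 and 10.4% in replicate 3, against 6.58% to 7.17% in Col-0. Transcripts of photosynthetic tissue summed to 109, 120 and 213 FPKM in wox5-1, against 146, 180 and 178 FPKM in Col-0. Approximate depths were 7.80 to 8.58 M fragments in wox5-1 and 7.61 to 8.204 M in Col-0. Without wox5-1 replicate 3, 1484 genes rose (8.61%) and 2027 fell (11.8%).

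Promoter stretches of 3 genes are shown as examples from groups described below: a mitotic cyclin, an evening gene of the circadian clock and a ribosomal protein gene. Each was picked among the called members of its group that hold the motif, so the motif in it is not a result. CYCB2;2 and TOC1 were not stable calls. Each is the 250 bases before the annotated gene start in RefSeq's TAIR10.1, read 5′ to 3′ along the gene's strand, with matches to a named motif in capitals. In CYCB2;2 (chr4:16901346-16901595, plus strand) the capitals mark the core of the mitosis-specific activator element, TAACGG or CAACGG. In TOC1 (chr5:24674713-24674962, plus strand) they mark the evening element, AAATATCT. In AT5G02740, a gene for a protein of the ribosomal S24e family (chr5:616174-616423, plus strand), they mark site II, TGGGCC or TGGGCT.
CYCB2;2: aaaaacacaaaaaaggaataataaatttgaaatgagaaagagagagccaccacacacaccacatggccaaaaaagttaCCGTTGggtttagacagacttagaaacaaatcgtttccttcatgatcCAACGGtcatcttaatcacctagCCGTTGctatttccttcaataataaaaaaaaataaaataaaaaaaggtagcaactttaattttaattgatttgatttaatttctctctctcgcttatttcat
TOC1: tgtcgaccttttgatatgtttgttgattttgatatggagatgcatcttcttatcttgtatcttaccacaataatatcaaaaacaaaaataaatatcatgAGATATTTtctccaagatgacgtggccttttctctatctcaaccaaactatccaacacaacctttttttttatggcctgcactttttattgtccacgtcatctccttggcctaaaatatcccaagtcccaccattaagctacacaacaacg
AT5G02740: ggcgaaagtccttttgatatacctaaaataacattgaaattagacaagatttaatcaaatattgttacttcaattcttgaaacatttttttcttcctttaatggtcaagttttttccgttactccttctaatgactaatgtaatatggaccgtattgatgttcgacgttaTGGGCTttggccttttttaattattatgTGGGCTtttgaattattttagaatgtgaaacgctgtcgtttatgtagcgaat
Motifs were looked for on both strands. The mitotic element starts at positions -172, -125 and -102 of CYCB2;2, the evening element at -151 of TOC1, and site II at -80 and -52 of AT5G02740, counted from the gene start.

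Among the stable falls the most abundant transcripts, PYK10 and PBP1, belong to the ER body system, a store of beta-glucosidases in young root cells that release defence compounds when cells break. PYK10 (BGLU23; chromosome 3, 2840477 to 2843781, minus strand), the main enzyme of root ER bodies, had 1131, 1434 and 1558 FPKM in wox5-1, against 2492, 2563 and 2338 FPKM in Col-0. That is 1.79-fold lower (log2 difference -0.85, SE 0.12, adjusted p = 0.00263). PBP1, a jacalin-related lectin that binds PYK10, had 869.7, 895 and 846 FPKM in wox5-1, against 1311, 1369 and 1379.6 FPKM in Col-0 (log2 difference -0.64, SE 0.07, adjusted p = 0.00127). Every wox5-1 library stood below every Col-0 library for both.

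PBP1 lies in a run of lectin genes on chromosome 3 (PBP1 starts at 5579290 and JR1 ends at 5599224), and 4 of its neighbours fell too. JAL33 had 15.1, 15.2 and 16.4 FPKM in wox5-1, against 37.8, 38.9 and 56.6 FPKM in Col-0, 2.86-fold lower (log2 difference -1.43, SE 0.15, adjusted p = 0.000826). JR1, a lectin gene known to respond to jasmonate, had only 1.27, 1.52 and 2.00 FPKM in wox5-1, against 6.57, 7.42 and 10.3 FPKM in Col-0, 5.06-fold lower. JAL31 averaged 55.2 ± 2.51 FPKM in wox5-1 and 75.0 ± 5.69 FPKM in Col-0, and JAL34, which overlaps JR1, 599 ± 58.5 FPKM in wox5-1 and 836 ± 31.6 FPKM in Col-0 (SD, n = 3 each). A second run of lectin genes, on chromosome 1 between 19354919 and 19366925, fell as well. AT1G52070 had 467, 632 and 508 FPKM in wox5-1, against 1159, 1131 and 1120.3 FPKM in Col-0 (log2 difference -1.10, SE 0.13, adjusted p = 0.00127), AT1G52060 was 2.65-fold lower and AT1G52050 2.82-fold lower. Close paralogs can trade fragments, so the split among the 3 is uncertain. Of 21 tested genes of mannose-binding lectins and JAL proteins, a family taken from product names after values were seen, 10 fell, 9 of them stably, and 0 rose in the limma fit, with 15 at an unadjusted p below 0.05 in either direction; the family's median was -0.48.

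Other beta-glucosidases of defence fell with PYK10. The root myrosinases TGG4 and TGG5, which cleave glucosinolates, are near copies and are best read together. TGG5 had 249, 436 and 389 FPKM in wox5-1, against 906, 888 and 876 FPKM in Col-0 (log2 difference -1.35, SE 0.20, adjusted p = 0.00299), and TGG4 averaged 348 ± 101 FPKM in wox5-1 and 799.7 ± 26.1 FPKM in Col-0 (SD, n = 3 each). PEN2, an atypical myrosinase of defence against fungi, was 1.92-fold lower (log2 difference -0.93, SE 0.14, adjusted p = 0.00323). BGLU15, which hydrolyses flavonol glucosides, had 22.6, 28.7 and 28.1 FPKM in wox5-1, against 53.1, 52.2 and 53.5 FPKM in Col-0, and BGLU16 averaged 18.4 ± 5.15 FPKM in wox5-1 and 44.1 ± 5.04 FPKM in Col-0. Of the 13 tested genes with beta-glucosidase in the product name, a family that leaves out PYK10 and PEN2, 7 fell, 5 stably, and 2 rose. Of the 13 tested genes of glucosinolates and camalexin, which share TGG4 and TGG5 with that family, 7 fell, 5 stably, and 0 rose (7 at an unadjusted p below 0.05), with a median of -0.55. CYP81F4, a cytochrome P450 of indole glucosinolate modification that overlaps another gene, was 1.47-fold lower.

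**Figure D1:**
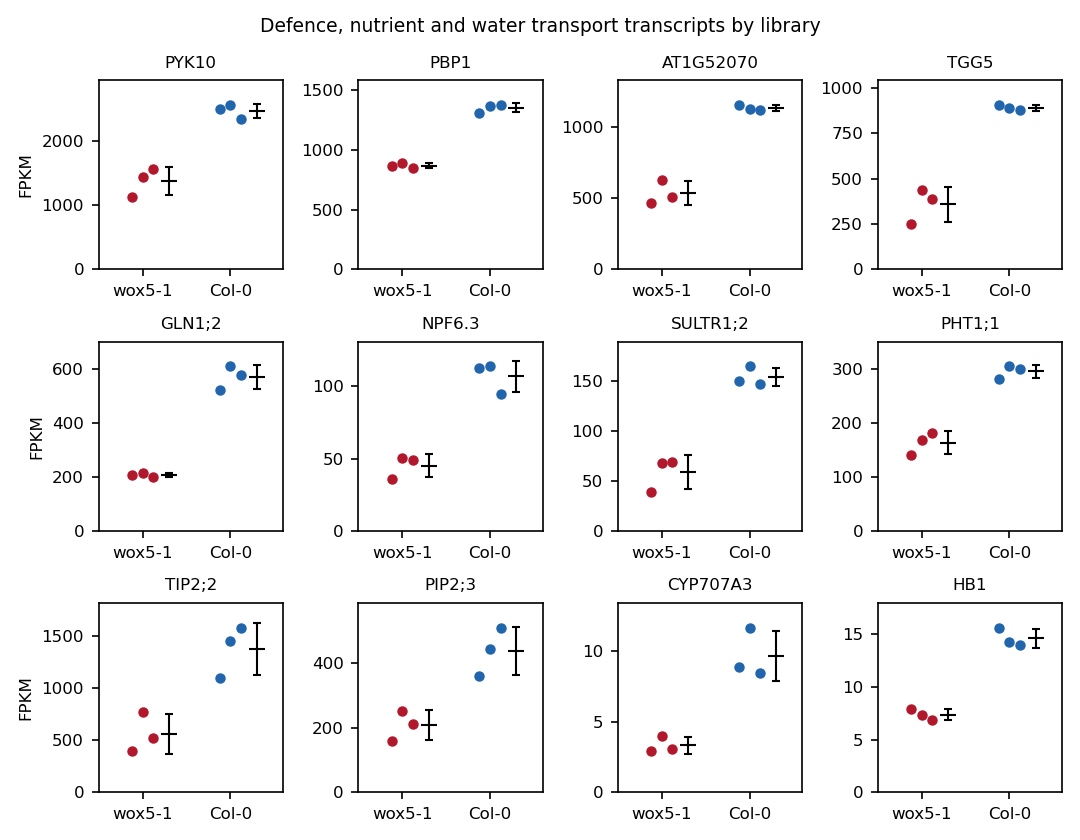
FPKM of 12 transcripts that were lower in wox5-1, by library. Points are the 3 libraries of a genotype, wox5-1 left and Col-0 right, and the bar is the mean ± SD; in every panel the 3 wox5-1 points lie below the 3 Col-0 points, as for PYK10 at 1131 to 1558 FPKM against 2338 to 2563 FPKM.

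Some transporters and enzymes of nitrogen and sulfate nutrition fell. GLN1;2, a cytosolic glutamine synthetase that assimilates ammonium, had 208, 214 and 198 FPKM in wox5-1, against 523, 609.8 and 576 FPKM in Col-0, 2.76-fold lower (log2 difference -1.46, SE 0.12, adjusted p = 0.000351). NPF6.3 (NRT1.1 or CHL1), the dual-affinity nitrate transporter and nitrate sensor, had 35.9, 50.7 and 49.1 FPKM in wox5-1, against 112, 114 and 94.8 FPKM in Col-0 (log2 difference -1.24, SE 0.14, adjusted p = 0.00106). For both, the highest wox5-1 library lay well below the lowest Col-0 library.

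AMT1;2, an ammonium transporter of the endodermis and cortex, had 5.48, 4.90 and 3.62 FPKM in wox5-1, against 9.65, 15.1 and 16.3 FPKM in Col-0. NRT3.1, the partner protein that high-affinity nitrate transporters need at the membrane, averaged 87.7 ± 4.21 FPKM in wox5-1 and 161 ± 38.3 FPKM in Col-0 (log2 difference -0.84, SE 0.15, adjusted p = 0.00642). Of 22 nitrogen genes tested, 9 fell, 5 of them stably, and 1 rose; the median was -0.42, and without Col-0 replicate 2 the falls numbered 5. SULTR1;2, the main root sulfate uptake transporter, had 39.2, 68.1 and 68.4 FPKM in wox5-1, against 149.97, 164 and 147 FPKM in Col-0 (log2 difference -1.42, SE 0.19, adjusted p = 0.00192). SULTR2;2, a low-affinity sulfate transporter of the vascular tissue, had 0.106, 0.283 and 0.329 FPKM in wox5-1, against 3.21, 3.63 and 2.39 FPKM in Col-0, 12.8-fold lower; it overlaps another gene. The 12 sulfur genes tested did not move as a block: 3 fell, 2 stably, 1 rose, and the median was -0.09, or 0.01 without Col-0 replicate 2.

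Some phosphate and iron genes fell. Of 21 phosphate starvation genes 9 fell, 4 of them stably, and 0 rose, against 11 at an unadjusted p below 0.05; without Col-0 replicate 2, 4 fell. The high-affinity transporter PHT1;1 had 142, 168 and 182 FPKM in wox5-1, against 282, 305 and 299.8 FPKM in Col-0. SQD2, a sulfolipid synthase that helps spare phosphate in membranes, averaged 63.4 ± 14.8 FPKM in wox5-1 and 108 ± 11.7 FPKM in Col-0, and PLDP2 (PLDZETA2), a phospholipase D of phosphate-starved roots, 3.96 ± 0.858 FPKM in wox5-1 and 7.72 ± 0.623 FPKM in Col-0 (SD, n = 3 each). Of 23 iron genes 10 fell and 4 rose, with 5 stable falls, 0 stable rises and a median of -0.45; leaving out Col-0 replicate 2 gave 5 falls and 0 rises, leaving out wox5-1 replicate 1 gave 6 and 0, and 2 rose when Col-0 replicate 1 or wox5-1 replicate 2 or 3 was left out. FIT, the central regulator of root iron uptake, was 2.05-fold lower, and BHLH39, its partner in the iron response, was 2.05-fold lower (log2 difference -0.79, SE 0.17, adjusted p = 0.0120) and the nicotianamine synthase NAS4 2.65-fold lower (log2 difference -1.12, SE 0.19, adjusted p = 0.00489).

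Most tested water channels of the vacuole and plasma membrane fell, few of them stably. Vacuolar TIP channels are made above all in cells that have left the meristem and are enlarging their vacuoles. TIP2;2 had 397, 773 and 522 FPKM in wox5-1, against 1093, 1449 and 1579 FPKM in Col-0 (log2 difference -1.32, SE 0.22, adjusted p = 0.00503), and TIP2;1, which overlaps another gene, had 613, 864 and 933 FPKM in wox5-1, against 1368, 1402 and 1332 FPKM in Col-0. PIP2;3, a plasma membrane water channel, had 159, 253 and 213 FPKM in wox5-1, against 361, 445 and 511 FPKM in Col-0 (log2 difference -1.08, SE 0.18, adjusted p = 0.00429). Of 18 aquaporins tested 17 had a lower mean in wox5-1, 12 fell, 3 of them stably, 1 rose, and the median was -0.57. The count of falls depended on single libraries: leaving out Col-0 replicate 2 gave 3, Col-0 replicate 3 gave 7 and wox5-1 replicate 1 gave 6.

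Some genes of the endodermis, the epidermis and the root cap fell too, few of those of the endodermis and epidermis stably. All 13 endodermis and suberin genes tested had a lower mean, 6 fell, 1 of them stably (ASFT), and the median was -0.56; when Col-0 replicates 1, 2 and 3 were left out in turn 3, 1 and 2 fell, and 2 without wox5-1 replicate 1. ASFT, a feruloyl transferase that builds suberin and that overlaps another gene, had 22.7, 36.2 and 26.3 FPKM in wox5-1, against 68.9, 67.8 and 53.4 FPKM in Col-0. Among the 17 genes of epidermis and root hairs 4 fell, 1 of them stably, and 0 rose, with 7 at an unadjusted p below 0.05. Of all tested genes 13.4% fell, 5.26% stably. Leaving out Col-0 replicate 1 or 2 or wox5-1 replicate 1 gave 1, 1 and 2 falls among the 17. The bHLH factor RSL2, a driver of hair growth, was the stable one at 21.6 ± 4.88 FPKM in wox5-1 and 37.2 ± 5.98 FPKM in Col-0. Among the 8 tested columella and root cap genes, 5 fell, 3 of them stably, and 1 rose, stably. BRN1, a NAC factor of cap maturation, averaged 19.8 ± 2.16 FPKM in wox5-1 and 39.9 ± 9.35 FPKM in Col-0. Its partner BRN2 averaged 14.6 ± 2.27 FPKM in wox5-1 and 37.5 ± 1.63 FPKM in Col-0. By contrast PIN3, the auxin efflux carrier that columella cells reorient under gravity, had 17.1, 13.1 and 15.7 FPKM in wox5-1, against 8.49, 7.96 and 7.98 FPKM in Col-0 (log2 difference 0.83, SE 0.16, adjusted p = 0.00953). PIN3 is also made in the stele, and these values do not place it in either tissue.

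**Figure D2:**
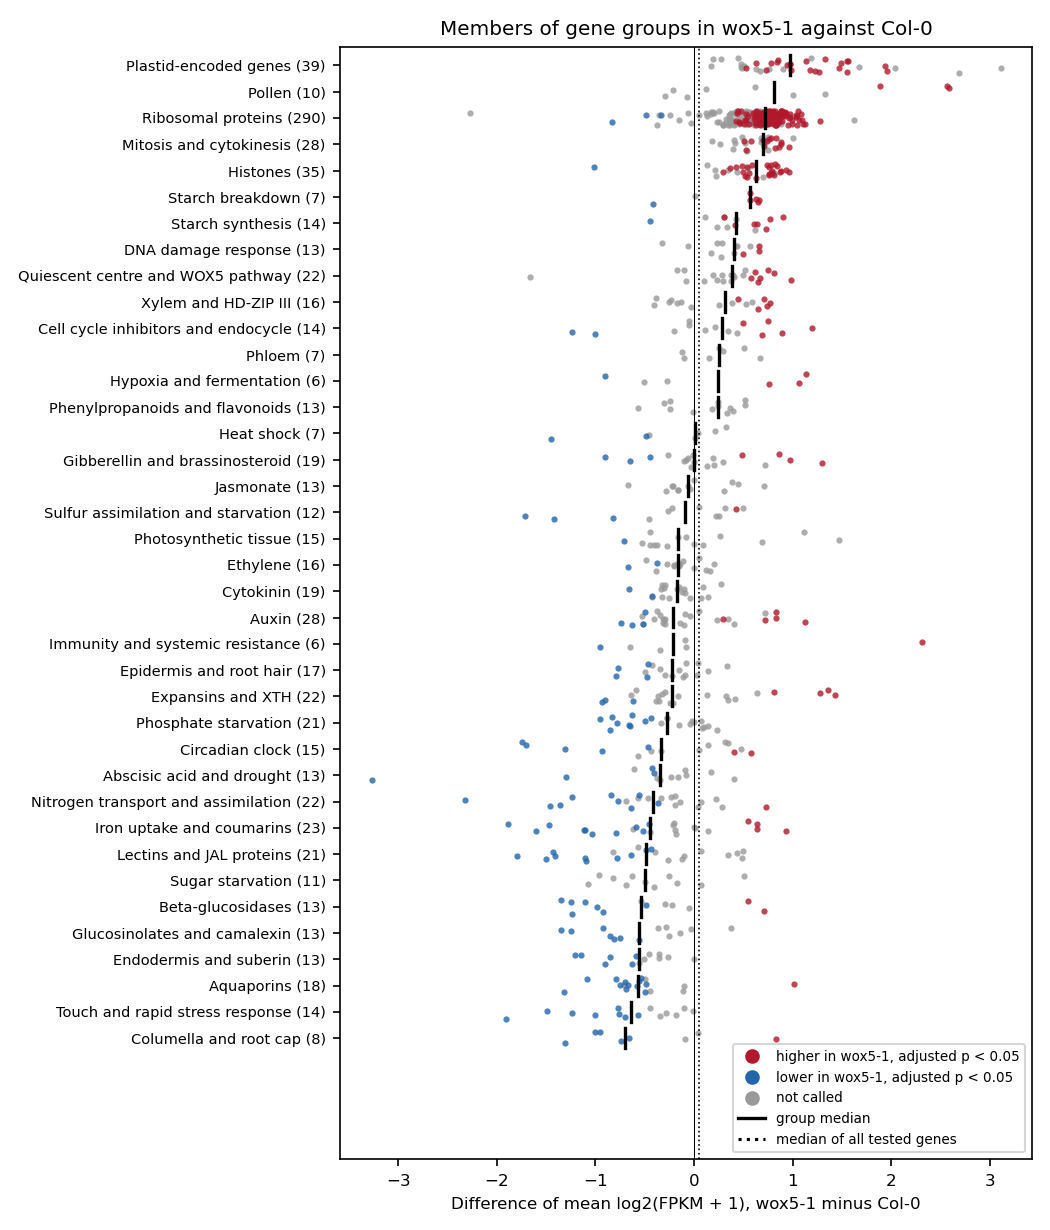
Log2 differences, wox5-1 minus Col-0, of the tested members of each gene group. Points are genes (red called higher, blue called lower, grey not called), the bar is the median of a group, the number of genes stands in brackets, and the dotted line is the median of all tested genes at 0.06; touch genes and endodermis genes lie below zero throughout, and mitosis genes and plastid-encoded genes above it.

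Calls among circadian clock genes went both ways. The clock runs on morning MYB-like factors and evening factors that repress each other. CCA1, one of the pair of core morning factors, had 0.528, 0.260 and 0.820 FPKM in wox5-1, against 4.04, 4.68 and 3.598 FPKM in Col-0, 7.66-fold lower (log2 difference -1.74, SE 0.16, adjusted p = 0.000408). LHY, its partner, had 0.888, 0.901 and 1.43 FPKM in wox5-1, against 7.03, 5.73 and 4.59 FPKM in Col-0, 5.40-fold lower (log2 difference -1.71, SE 0.17, adjusted p = 0.000760). Neither exceeded 1.43 FPKM in a wox5-1 library, and both were above that level in each Col-0 library.

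RVE8 and LNK2, a MYB-like activator of evening genes and its co-activator, fell as well. RVE8 had 1.49, 2.49 and 2.23 FPKM in wox5-1, against 4.33, 4.89 and 5.29 FPKM in Col-0, and LNK2, which overlaps another gene, had 2.00, 1.93 and 3.98 FPKM in wox5-1, against 9.39, 7.42 and 6.64 FPKM in Col-0. RVE4, a relative of RVE8, averaged 17.5 ± 2.35 FPKM in wox5-1 and 24.6 ± 1.70 FPKM in Col-0 (log2 difference -0.47, SE 0.12, adjusted p = 0.0206), but lost its call in leave-one-out fits. Of the evening genes, ELF4, part of the evening complex, had 89.5, 109 and 86.9 FPKM in wox5-1, against 53.8, 64.0 and 73.5 FPKM in Col-0 (log2 difference 0.57, SE 0.13, adjusted p = 0.0149); its adjusted p was 0.0530 without Col-0 replicate 2. TOC1, the repressor of CCA1 and LHY, had 17.5, 19.8 and 20.0 FPKM in wox5-1, against 12.1, 15.2 and 15.5 FPKM in Col-0 (log2 difference 0.40, SE 0.12, adjusted p = 0.0360); without single libraries its adjusted p was up to 0.0998, and 0.0614 with the replicate block. JMJD5, a histone demethylase gene expressed toward evening and outside the 15 clock genes of the list, had 3.91, 5.55 and 3.42 FPKM in wox5-1, against 0.280, 0.559 and 0.492 FPKM in Col-0, 9.67-fold higher (log2 difference 1.86, SE 0.18, adjusted p = 0.000489).

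Of the 15 clock genes tested, 5 fell, 4 of them stably, and 2 rose, neither stably. The other 8, among them the evening genes GI, LUX and ELF3, were not called. The median was -0.34. The evening element lies in the 250 bases before the start of 4 of the 15 (26.7%), against 4.86% of the 16832 protein-coding genes tested. The labels give no hour of harvest, and its part in these differences was not tested.

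**Figure D3:**
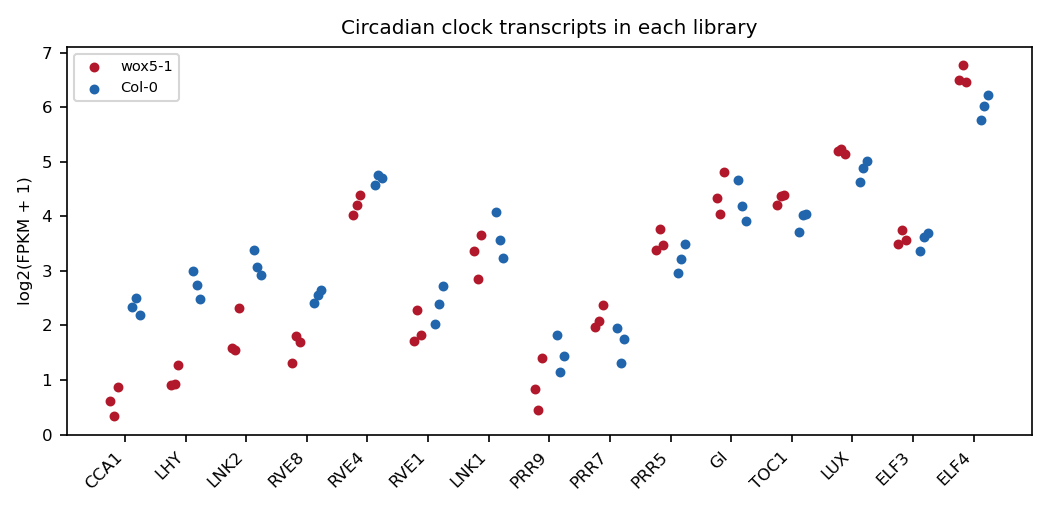
Level of 15 clock genes as log2(FPKM + 1), with 1 point per library, wox5-1 left and Col-0 right for each gene. CCA1 and LHY are separated by more than 1 log2 unit in the means (-1.74 and -1.71), and ELF4 and TOC1 are higher in wox5-1 by 0.57 and 0.40.

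Of 14 tested genes known to respond rapidly to touch and stress, 8 fell. TCH3, a calmodulin-like gene named for its response to touch, had 10.8, 12.9 and 7.60 FPKM in wox5-1, against 21.0, 67.1 and 48.6 FPKM in Col-0; it overlaps another gene, and its Col-0 libraries spread widely. ERF6, a stress-induced ERF factor, had 8.26, 10.6 and 5.50 FPKM in wox5-1, against 18.6, 23.9 and 17.6 FPKM in Col-0 (log2 difference -1.23, SE 0.21, adjusted p = 0.00495). SZF1, a zinc finger gene of salt and elicitor responses, averaged 4.22 ± 0.251 FPKM in wox5-1 and 7.94 ± 0.983 FPKM in Col-0, and ZAT10, a zinc finger repressor, 2.00 ± 0.727 FPKM in wox5-1 and 5.01 ± 1.56 FPKM in Col-0 (SD, n = 3 each). All 14 touch and rapid stress genes tested had a lower mean, 4 of the falls were stable, and the median was -0.63; leaving out Col-0 replicate 1 or 2 gave 5 and 4 falls, and leaving out wox5-1 replicate 1 gave 4. Handling at harvest is not described beyond the collection into lysis buffer, and its part was not tested. An HSP70 gene (AT3G12580), a chaperone of the heat response, had 2.18, 2.54 and 2.14 FPKM in wox5-1, against 10.5, 8.37 and 5.68 FPKM in Col-0, yet only 2 of 7 heat shock genes fell and 0 rose, with 2 at an unadjusted p below 0.05.

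Many genes for ribosomal proteins rose, few of them stably. Of 290 tested nuclear genes for ribosomal proteins 280 had a higher mean in wox5-1, 156 rose, 20 of them stably, 3 fell, and the median was 0.72. AT3G53890, for a protein of the S21e family of the small subunit, had 981, 615 and 671 FPKM in wox5-1, against 318, 321 and 405 FPKM in Col-0 (log2 difference 1.09, SE 0.21, adjusted p = 0.00853). AT4G33865, of the S14p/S29e family, had 779, 493 and 577 FPKM in wox5-1, against 304, 231 and 315 FPKM in Col-0, and AT5G56670, of the S30 family, which overlaps another gene, averaged 497 ± 119.7 FPKM in wox5-1 and 250.2 ± 22.8 FPKM in Col-0. Replicate 1 was the highest wox5-1 library for each. AT5G02740, whose promoter is shown above, averaged 56.4 ± 8.36 FPKM in wox5-1 and 35.4 ± 2.14 FPKM in Col-0 (log2 difference 0.65, SE 0.12, adjusted p = 0.00698).

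The count of rises among ribosomal protein genes turned on single libraries. With Col-0 replicates 1, 2 and 3 left out in turn it was 40, 26 and 77; with wox5-1 replicates 1 and 3 left out it was 24 and 87, and with seu-3 replicates 1 and 3 left out 95 and 243. Ribosomal protein transcripts are short, and shorter transcripts leaned upward in general: 22.8% of genes with a spliced length of 500 to 1000 bases rose and 11.8% fell, against 9.89% and 10.3% of genes of at least 3000 bases. Within the ribosomal protein genes the median was 0.83 below 700 bases, 0.75 from 700 to 900 bases and 0.68 above, so the difference was present in each length class; the part of length in it was not tested. Site II lies before 169 of these 290 genes (58.3%), against 23.1% of all tested protein-coding genes, 31.8% of the genes that rose and 11.3% of those that fell.

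**Figure D4:**
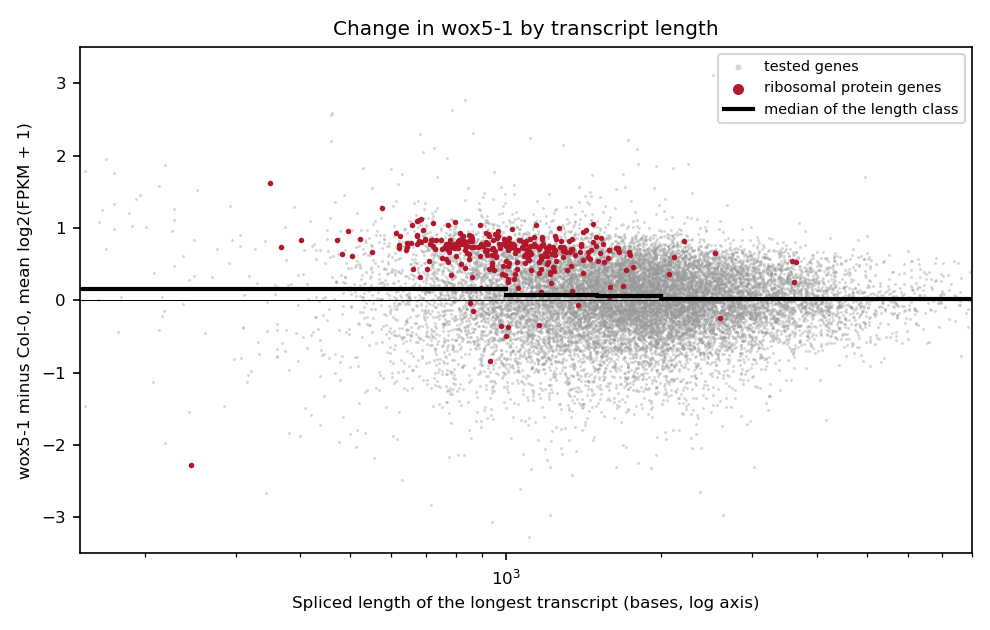
Log2 difference, wox5-1 minus Col-0, against spliced transcript length in bases (log axis). Grey points are tested genes, red points the ribosomal protein genes, and black bars the median of each length class, ribosomal protein genes included. These medians run from 0.16 below 500 bases to 0.02 above 3000 bases, and red points lie above the bars at most lengths.

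Most of the tested histone genes and 14 of 28 genes of mitosis and cytokinesis, which are transcribed in dividing cells, also rose, few of them stably. Of 35 histone genes 34 had a higher mean, 26 rose, 3 of them stably, 1 fell, stably, and the median was 0.63. HTA6, an H2A gene, had 339, 239 and 269 FPKM in wox5-1, against 158, 154 and 176 FPKM in Col-0 (log2 difference 0.78, SE 0.16, adjusted p = 0.0109). HTA5, an H2A.X gene, averaged 111 ± 18.21 FPKM in wox5-1 and 59.9 ± 2.29 FPKM in Col-0, and AT5G65360, an H3 gene, 309.7 ± 59.5 FPKM in wox5-1 and 173 ± 14.2 FPKM in Col-0 (SD, n = 3 each). HTA12, an H2A gene that overlaps another gene, went against the rest at 6.304, 10.8 and 6.36 FPKM in wox5-1, against 15.9, 14.1 and 19.4 FPKM in Col-0 (log2 difference -1.01, SE 0.20, adjusted p = 0.00964). Histone copies are alike and can share fragments. With Col-0 replicates 1, 2 and 3 left out in turn 5, 3 and 16 histone genes rose, and with wox5-1 replicates 1 and 3 left out 3 and 16.

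All 28 tested mitosis and cytokinesis genes had a higher mean, 14 rose, 0 fell and 0 were stable, with 23 at an unadjusted p below 0.05; the median was 0.70. With Col-0 replicates 1, 2 and 3 left out in turn 3, 0 and 7 of them rose in the limma fit. With wox5-1 replicates 1 and 3 left out 1 and 7 rose, and with seu-3 replicates 1 and 3 left out 9 and 22. CYCB2;2, a B-type cyclin shown above with its promoter, had 4.06, 4.196 and 3.68 FPKM in wox5-1, against 1.95, 1.95 and 2.04 FPKM in Col-0 (log2 difference 0.74, SE 0.18, adjusted p = 0.0189). CYCB3;1 had 5.14, 5.41 and 4.74 FPKM in wox5-1, against 2.28, 2.45 and 2.94 FPKM in Col-0 (log2 difference 0.78, SE 0.18, adjusted p = 0.0176). The mitotic element lies before 13 of the 28 genes (46.4%), against 11.8% of all tested protein-coding genes. P1BS, GNATATNC, the site of phosphate response factors, was looked for in the same way and lies before 3 of 21 phosphate starvation genes (14.3%), against 5.34%.

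Inhibitors of cyclin-dependent kinases did not move together. KRP3 had 10.13, 6.57 and 7.88 FPKM in wox5-1, against 3.76, 3.20 and 2.13 FPKM in Col-0, 2.70-fold higher (log2 difference 1.19, SE 0.21, adjusted p = 0.00632), and KRP7 averaged 3.94 ± 0.794 FPKM in wox5-1 and 1.66 ± 0.422 FPKM in Col-0. KRP1 had 0.240, 0.207 and 0.254 FPKM in wox5-1, against 2.06, 1.57 and 2.13 FPKM in Col-0, 8.21-fold lower, and was not among the stable calls because it fell below the filter when a Col-0 library was left out. AT1G08180, whose product name is cyclin-dependent kinase inhibitor, averaged 3.95 ± 0.235 FPKM in wox5-1 and 8.99 ± 1.46 FPKM in Col-0. Of 14 inhibitor and endocycle genes 5 rose and 2 fell, with 2 stable rises and 1 stable fall; leaving out any Col-0 library, seu-3 replicate 1 or wox5-1 replicate 1 gave 2 rises, and leaving out wox5-1 replicate 2 gave 3.

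Plastid-encoded transcripts had the highest median of the groups described here. All 39 tested were higher on average, 22 rose, 12 of them stably, 0 fell, with 31 at an unadjusted p below 0.05, and the median was 0.97. They took 0.236%, 0.201% and 0.247% of the FPKM in wox5-1, against 0.132%, 0.129% and 0.145% in Col-0. ATCG00820 had 242, 192 and 201 FPKM in wox5-1, against 114, 109 and 103 FPKM in Col-0 (log2 difference 0.95, SE 0.11, adjusted p = 0.00132), ATCG00470 averaged 242 ± 28.8 FPKM in wox5-1 and 133 ± 12.7 FPKM in Col-0, and ATCG00330 was more variable at 28.4, 14.3 and 45.6 FPKM in wox5-1, against 3.74, 6.57 and 8.94 FPKM in Col-0. Leaving out Col-0 replicate 1 gave 14 rises, and leaving out wox5-1 replicates 1 and 3 gave 12 and 15. Nuclear genes of photosynthetic tissue did not follow: 1 of 15 fell (PSBO1, of the oxygen-evolving complex, 15.6 ± 2.08 FPKM in wox5-1 and 26.0 ± 2.13 FPKM in Col-0) and 0 rose, with 5 at an unadjusted p below 0.05. Mitochondrion-encoded genes gave 1 rise and 1 fall among 18.

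**Figure D5:**
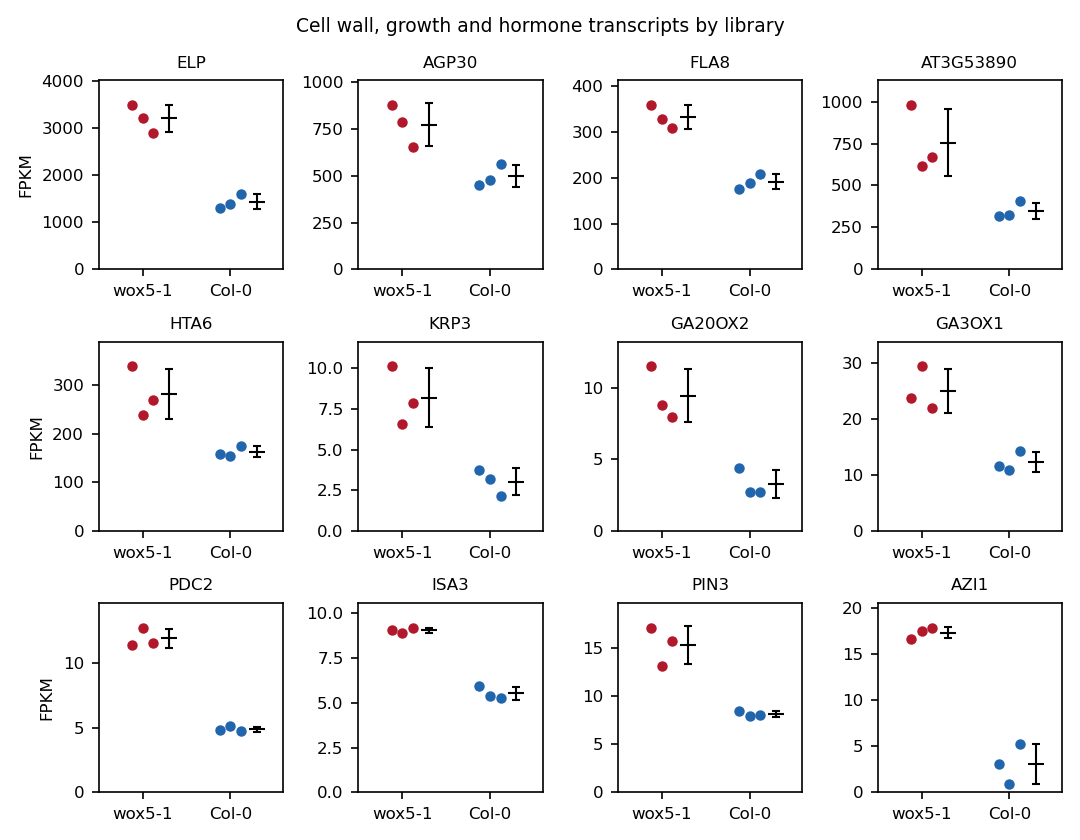
FPKM of 12 transcripts that were higher in wox5-1, by library. Points are the 3 libraries of a genotype, wox5-1 left and Col-0 right, and the bar is the mean ± SD; in every panel the 3 wox5-1 points lie above the 3 Col-0 points, as for ELP at 2898 to 3490.1 FPKM against 1304 to 1603 FPKM.

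Some abundant transcripts of cell surface proteins were among the stable rises. ELP, an extensin-like protein, had 3490.1, 3206 and 2898 FPKM in wox5-1, against 1304, 1396 and 1603 FPKM in Col-0, 2.23-fold higher (log2 difference 1.16, SE 0.11, adjusted p = 0.000414). AGP30, an arabinogalactan protein of roots, had 878, 784 and 650.5 FPKM in wox5-1, against 451, 479 and 564 FPKM in Col-0 (log2 difference 0.62, SE 0.13, adjusted p = 0.00998). FLA8, a fasciclin-like arabinogalactan protein, had 359.8, 329 and 308 FPKM in wox5-1, against 176, 189 and 209.5 FPKM in Col-0 (log2 difference 0.79, SE 0.14, adjusted p = 0.00565). For each of these the libraries of the genotypes lay apart.

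AGP10 averaged 523 ± 90.5 FPKM in wox5-1 and 288 ± 36.4 FPKM in Col-0 and AGP26 117 ± 17.1 FPKM in wox5-1 and 71.3 ± 0.698 FPKM in Col-0 (SD, n = 3 each); both overlap another gene. FLA13, another fasciclin-like protein, went the other way with 106, 130.4 and 131 FPKM in wox5-1, against 213, 223 and 209.6 FPKM in Col-0 (log2 difference -0.82, SE 0.10, adjusted p = 0.00132). Of 35 tested arabinogalactan protein genes 7 rose, 4 stably, and 2 fell, 1 stably; leaving out Col-0 replicate 2 or wox5-1 replicate 3 gave 4 rises, and the median was 0.10, or -0.13 without wox5-1 replicate 3. The rises that were not stable included AGP23 and AGP40, pollen transcripts that were both highest in wox5-1 replicate 3. AGP40 had 2.74, 0.997 and 26.7 FPKM in wox5-1, against 0 FPKM in all 3 libraries of Col-0. GASA4, a gibberellin-responsive small cell wall peptide, had 1223, 1085 and 1018 FPKM in wox5-1, against 723, 656 and 775 FPKM in Col-0 (log2 difference 0.63, SE 0.12, adjusted p = 0.00723), and GLL22, a GDSL lipase-like gene, averaged 1157 ± 189 FPKM in wox5-1 and 772 ± 47.8 FPKM in Col-0. ACBP6, a cytosolic acyl-CoA-binding protein, was 1.49-fold higher, and AT5G54370, a LEA-like gene, 2.09-fold lower. XTH31, a xyloglucan-modifying wall enzyme, was 1.87-fold lower. Among 22 expansin and XTH genes 4 rose and 3 fell, where 13.9% of all tested genes rose and 13.4% fell. Leaving out Col-0 replicate 2 gave 1 rise and 1 fall there, Col-0 replicate 3 gave 1 rise, wox5-1 replicate 1 gave 0 rises and 1 fall, and wox5-1 replicate 3 gave 2 rises.

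Several genes that make or break down hormones changed. GA20OX2, a gibberellin 20-oxidase that makes precursors of active gibberellin, had 11.5, 8.82 and 7.98 FPKM in wox5-1, against 4.42, 2.70 and 2.70 FPKM in Col-0, 2.88-fold higher (log2 difference 1.3, SE 0.19, adjusted p = 0.00317). GA3OX1, which catalyses the last step to active gibberellin, had 23.7, 29.5 and 22.1 FPKM in wox5-1, against 11.6, 10.9 and 14.4 FPKM in Col-0 (log2 difference 0.97, SE 0.16, adjusted p = 0.00438). Transcripts of both steps were higher in wox5-1, and no gibberellin was measured.

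In brassinosteroid synthesis CPD averaged 12.6 ± 1.44 FPKM in wox5-1 and 6.46 ± 0.233 FPKM in Col-0, whereas ROT3, a C-23 hydroxylase, averaged 8.99 ± 1.37 FPKM in wox5-1 and 17.6 ± 0.703 FPKM in Col-0 (SD, n = 3 each); the vascular receptor BRL3 was 1.64-fold lower. All 3 overlap another gene. Of 19 gibberellin and brassinosteroid genes 4 rose, 3 stably, and 3 fell, 2 stably, with a median of -0.002. Of all tested genes 13.9% rose, 2.5% stably, and 13.4% fell, 5.26% stably. CYP707A3, which inactivates abscisic acid, had 2.89, 4.02 and 3.05 FPKM in wox5-1, against 8.84, 11.6 and 8.43 FPKM in Col-0 (log2 difference -1.30, SE 0.18, adjusted p = 0.00223), and 4 of 13 abscisic acid and drought genes fell, 0 rose (7 at an unadjusted p below 0.05); 2 fell when 1 of Col-0 replicate 2, wox5-1 replicates 1 and 3 and seu-3 replicate 1 was left out. IPT5, a cytokinin synthesis gene of lateral root primordia and the root cap, averaged 10.02 ± 1.08 FPKM in wox5-1 and 16.4 ± 1.57 FPKM in Col-0 (log2 difference -0.66, SE 0.12, adjusted p = 0.00606), and 2 of 19 cytokinin genes fell with 0 rises (4 at an unadjusted p below 0.05). PIN7, an auxin efflux carrier of the stele and columella, had 19.4, 18.7 and 21.4 FPKM in wox5-1, against 11.8, 12.4 and 10.7 FPKM in Col-0 (log2 difference 0.72, SE 0.16, adjusted p = 0.0132); with PIN3 it made up the 2 stable rises among 28 auxin genes, of which 5 rose and 4 fell. The cytokinin and auxin counts stand beside 13.9% of all tested genes rising and 13.4% falling, so they do not set these lists apart. With Col-0 replicates 1, 2 and 3 left out in turn 3, 2 and 2 auxin genes rose, with wox5-1 replicates 1 and 3 left out 2 and 3, and 2, 1 and 2 fell without Col-0 replicate 1, Col-0 replicate 2 and wox5-1 replicate 1.

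Genes of low-oxygen metabolism split within the list. PDC2, a pyruvate decarboxylase at the entry to ethanol fermentation, had 11.5, 12.8 and 11.6 FPKM in wox5-1, against 4.82, 5.12 and 4.78 FPKM in Col-0, 2.43-fold higher (log2 difference 1.13, SE 0.10, adjusted p = 0.000351). PDC1, the hypoxia-induced isoform, had 8.22, 7.80 and 8.78 FPKM in wox5-1, against 3.78, 4.26 and 2.44 FPKM in Col-0, and HRE2, an ERF factor of the hypoxia response, averaged 3.27 ± 0.568 FPKM in wox5-1 and 1.52 ± 0.287 FPKM in Col-0. HB1, a phytoglobin that hypoxia also induces, had 7.93, 7.37 and 6.85 FPKM in wox5-1, against 15.6, 14.3 and 13.97 FPKM in Col-0 (log2 difference -0.90, SE 0.11, adjusted p = 0.00135). All 4 calls among the 6 tested genes were stable, 3 upward and 1 downward.

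Some genes of starch synthesis and of starch breakdown rose. Of 7 genes of starch breakdown 5 rose, 2 of them stably, and 1 fell; 3 rose without Col-0 replicate 2. ISA3, a debranching enzyme that trims starch during degradation, had 9.07, 8.90 and 9.19 FPKM in wox5-1, against 5.92, 5.38 and 5.26 FPKM in Col-0 (log2 difference 0.63, SE 0.10, adjusted p = 0.00386). DPE2, which handles maltose in the cytosol, had 23.7, 21.5 and 21.2 FPKM in wox5-1, against 14.5, 13.8 and 12.6 FPKM in Col-0 (log2 difference 0.66, SE 0.14, adjusted p = 0.0106). Of 14 starch synthesis genes 7 rose, PGM1 and SBE2.1 stably, and 1 fell; leaving out Col-0 replicates 1 and 2 gave 4 and 2 rises, and leaving out wox5-1 replicate 1 gave 4.

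In the list of quiescent centre and WOX5 pathway genes 7 of 22 rose, 0 fell (11 at an unadjusted p below 0.05), and the median was 0.39; leaving out Col-0 replicate 2 gave 4 rises and leaving out wox5-1 replicate 1 gave 3. The stable rises were CLV2, a receptor-like protein of CLE peptide perception, at 3.73, 3.32 and 2.63 FPKM in wox5-1, against 0.724, 1.44 and 1.297 FPKM in Col-0 (log2 difference 0.98, SE 0.18, adjusted p = 0.00763), and TPST, the enzyme that sulfates root growth peptides, at 14.2, 13.3 and 12.8 FPKM in wox5-1, against 8.63, 7.15 and 9.52 FPKM in Col-0 (log2 difference 0.62, SE 0.12, adjusted p = 0.00988). Of 16 xylem and HD-ZIP III genes 5 rose and 0 fell, with 8 at an unadjusted p below 0.05; leaving out Col-0 replicates 1 and 2 gave 3 and 1 rises, and leaving out wox5-1 replicate 1 gave 1. The stable one was PHB, an HD-ZIP III factor that patterns the xylem, at 8.05, 7.66 and 7.08 FPKM in wox5-1, against 4.24, 3.74 and 4.18 FPKM in Col-0 (log2 difference 0.77, SE 0.11, adjusted p = 0.00317).

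Among 967 tested genes whose product name gives a transcription factor class or a zinc finger, 86 rose and 153 fell, 14 and 52 of them stably, with a median of -0.02. Of all tested genes 13.9% rose and 13.4% fell, 2.5% and 5.26% stably. The stable falls of the set stand near that share, and its rises lie below it. Zinc finger names also take in RING finger proteins, so the set is wider than transcription factors. MAF4, a MADS-box relative of the flowering repressor FLC, had 3.82, 2.92 and 2.78 FPKM in wox5-1, against 0.556, 0.949 and 0.718 FPKM in Col-0 (log2 difference 1.26, SE 0.19, adjusted p = 0.00356); it has close paralogs, so its value is uncertain. ERF8, a repressor of the ERF family, had 8.03, 8.21 and 5.43 FPKM in wox5-1, against 2.21, 3.57 and 2.90 FPKM in Col-0, and GNC, a GATA factor of chloroplast development, averaged 2.24 ± 0.428 FPKM in wox5-1 and 0.783 ± 0.260 FPKM in Col-0. MYB13 averaged 16.5 ± 4.66 FPKM in wox5-1 and 8.30 ± 0.649 FPKM in Col-0 (SD, n = 3 each). AT1G12760, a RING finger gene counted here only by its zinc finger name, had 25.8, 33.1 and 32.0 FPKM in wox5-1, against 8.69, 11.02 and 9.39 FPKM in Col-0, 3.12-fold higher (log2 difference 1.55, SE 0.12, adjusted p = 0.000267).

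Downward, WRKY75, a regulator of phosphate responses and root hairs, had 0.643, 1.497 and 0.824 FPKM in wox5-1, against 3.302, 4.71 and 4.58 FPKM in Col-0 (log2 difference -1.40, SE 0.18, adjusted p = 0.00181). PAT1, a GRAS protein of phytochrome A signalling, had 5.81, 5.6 and 6.16 FPKM in wox5-1, against 16.5, 15.3 and 14.7 FPKM in Col-0, with an SE of 0.09 around a difference of -1.26. PHE1, a MADS-box gene best known from endosperm, had 0.511, 0.673 and 0.782 FPKM in wox5-1, against 2.94, 2.84 and 3.47 FPKM in Col-0. A PLATZ gene, AT2G27930, was 3.20-fold lower, a GRAS gene, AT5G19970, 3.26-fold lower, and a NAC gene, AT3G12977, 3.76-fold lower. LHY and BRN2, described above, are also among the 8 largest stable falls of these classes.

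Among the 15 largest stable falls were genes with no well-described role in the root tip. AT5G26270, an uncharacterized gene that overlaps another, had 2.82, 2.58 and 2.46 FPKM in wox5-1, against 26.7, 30.05 and 25.3 FPKM in Col-0, 10.4-fold lower (log2 difference -2.97, SE 0.27, adjusted p = 0.000388). AT3G59930, a defensin-like gene, had 7.29, 7.19 and 7.34 FPKM in wox5-1, against 43.3, 60.0 and 75.1 FPKM in Col-0, 8.18-fold lower (log2 difference -2.83, SE 0.23, adjusted p = 0.000285). PGL4, a phosphogluconolactonase of the pentose phosphate pathway, had 9.18, 12.1 and 10.13 FPKM in wox5-1, against 44.9, 52.2 and 59.5 FPKM in Col-0 (log2 difference -2.21, SE 0.16, adjusted p = 0.000174). In each of these the wox5-1 libraries agree closely with one another and lie far below Col-0.

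AT3G24100, of the SERF family and overlapping another gene, was 6.12-fold lower. Of the 6 tested MLP-like genes, whose proteins resemble major latex proteins, 5 fell, 3 of them stably, 0 rose (5 at an unadjusted p below 0.05), and the median was -1.20; 3 fell without wox5-1 replicate 1. MLP329 had 5.94, 11.98 and 7.36 FPKM in wox5-1, against 56.8, 71.6 and 105 FPKM in Col-0 (log2 difference -3.07, SE 0.32, adjusted p = 0.000845), with all wox5-1 libraries below all Col-0 libraries. MLP34 averaged 185 ± 29.7 FPKM in wox5-1 and 306 ± 22.0 FPKM in Col-0 and MLP43 1.64 ± 0.425 FPKM in wox5-1 and 7.30 ± 2.59 FPKM in Col-0, and these copies are similar to each other.

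Upward, ABCG32, a transporter needed for the cuticle, had 3.68, 5.15 and 5.35 FPKM in wox5-1, against 0.611, 0.883 and 0.734 FPKM in Col-0, 6.36-fold higher (log2 difference 1.71, SE 0.15, adjusted p = 0.000400). GIP1, a partner of the gamma-tubulin complex that nucleates microtubules, had 15.6, 15.4 and 9.02 FPKM in wox5-1, against 3.04, 3.91 and 4.05 FPKM in Col-0 (log2 difference 1.59, SE 0.21, adjusted p = 0.00204). AT2G21640, whose product is named as a marker of oxidative stress, had 9.10, 6.80 and 8.73 FPKM in wox5-1, against 2.08, 1.05 and 2.54 FPKM in Col-0. AT2G41650, an uncharacterized gene that overlaps another, had 100.5, 65.8 and 81.8 FPKM in wox5-1, against 20.22, 15.4 and 20.12 FPKM in Col-0, and CWLP, a cell wall to plasma membrane linker that also overlaps another gene, 17.0, 12.1 and 13.0 FPKM in wox5-1, against 3.02, 4.90 and 4.39 FPKM in Col-0. In the immunity list of 6 genes AZI1, a lipid-transfer-like protein of systemic resistance, had 16.7, 17.5 and 17.9 FPKM in wox5-1, against 3.13, 0.921 and 5.31 FPKM in Col-0 (log2 difference 2.32, SE 0.35, adjusted p = 0.00361), and PAD4, a lipase-like immune regulator, had 3.91, 5.98 and 5.25 FPKM in wox5-1, against 9.72, 10.8 and 11.5 FPKM in Col-0 (log2 difference -0.96, SE 0.14, adjusted p = 0.00296); these were its 2 calls, and they went in opposite directions.

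The largest rises drew on wox5-1 replicate 3 more often than on the others. Of the 25 largest called rises, 14 were highest in that library, 8 fell below the filter without it, 10 were listed at 0 in all Col-0 libraries and 11 were stable. AGP23, a pollen arabinogalactan protein, had 3.34, 1.43 and 19.7 FPKM in wox5-1, against 0 FPKM in all 3 libraries of Col-0, and was not stable. AT2G20870, a gene for a cell wall protein precursor that overlaps another gene, had 4.36, 2.26 and 12.4 FPKM in wox5-1, against 0 FPKM in all 3 libraries of Col-0, and was the largest stable rise. Of the 2393 rises 1364 were still called without wox5-1 replicate 3, as were 1775 of the 2306 falls. The calls among nitrogen, touch, aquaporin and glucosinolate genes without it were 9, 7, 9 and 6 falls, and among ribosomal protein, histone and mitosis genes 87, 16 and 7 rises. The part of the pollen transcripts in the other differences was not tested.

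Several lists gave no call in the limma fit: 13 phenylpropanoid and flavonoid genes, of which 2 had an unadjusted p below 0.05, 13 jasmonate genes (2), 11 sugar starvation genes (1) and 7 phloem genes (2). Sugar starvation genes had a median of -0.50 all the same, with 9 of 11 lower on average. Among 16 ethylene genes 2 fell and 0 rose (3 at an unadjusted p below 0.05), where 13.4% of all tested genes fell. Among 13 DNA damage genes 3 rose, 0 fell and 0 were stable (6 at an unadjusted p below 0.05), where 13.9% of all tested genes rose. In 5 of the 9 fits that leave out a library 0 DNA damage genes rose, those without a Col-0 library, seu-3 replicate 1 or wox5-1 replicate 1. Within 100 kb of WOX5, 7 of 41 tested genes rose (17.1%) and 6 fell (14.6%), and 0 were stable. These shares stand near the 13.9% and 13.4% of all tested genes.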

How the data were processed

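RNA sequencing was done on root tips of 3 wox5-1, 3 Col-0 and 3 seu-3 samples. The deposited values are FPKM. Bowtie, Cufflinks and the build TAIR10 are named per the submitters' processing notes, without their roles; versions, annotation, counting options and strandedness are not given in the sources used here. FPKM hold no read counts, so count tests were not used, and approximate depths (7.61 to 8.58 M fragments in the 6 libraries compared) come from the smallest steps of the values. Depth limits low genes most, and an exact 0 can be a failed estimate: 6 genes were at 0 in 1 of the 6 libraries and at 5 FPKM or more in the other 5.

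The 17258 genes averaging 1 FPKM or more in the 6 wox5-1 and Col-0 libraries were fitted on log2(FPKM + 1) with limma 3.58.1 in R 4.3.3, as 1 fit of genotype over 9 libraries with a trended prior, and p-values were adjusted by Benjamini-Hochberg over all genes tested. The script was tested on simulated data. WOX5 lay below the filter and was tested by exact permutation, two-sided. Summaries used Python 3.11.15, numpy 2.4.6, pandas 2.3.3, scipy 1.17.1 and matplotlib 3.10.9.

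TAIR10.1 (RefSeq) gave names, overlaps, spliced lengths and promoters; 32826 of 33560 identifiers had an entry. Among the genes named, 23 overlap another annotated gene, so their values are open to fragments of the neighbour. Genes to name followed a rule: the 15 largest stable rises and falls, the 10 most abundant of each, and up to 4 called members per list. The 8 largest stable rises and falls with a transcription factor or zinc finger product name were added. The text prints part of these. JAL31, JAL33, JR1, AT1G52050, AT1G52060, TGG4, BGLU15, BGLU16, SQD2, BHLH39, RVE4, ELF4, TOC1, AT5G56670, AT5G02740, ATCG00820, ATCG00470, FLA8, AGP26, FLA13, BRL3, MLP34 and MLP43 were named after their values were seen. Families were taken from product names or locus codes after values were seen, and the gene groups, 36 lists in all, were chosen with earlier results of these data known. Alternatives were other pseudocounts, filters, scalings, variance settings, a size threshold, the replicate number as a block and leaving out each library.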

Additional observations from a re-analysis of the deposited data

How the results depend on the processing

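Of the 124 genes named in the text with a limma call, 0 changed direction in any alternative fit that tested them. In such fits 7 (ELF4, TOC1, RVE4, CYCB2;2, CYCB3;1, AGP23 and AGP40) lost the call under at least 1 alternative other than the size threshold. A gene that a filter removed from a fit, as KRP1 when a Col-0 library was left out, was not counted as lost. Counts of calls moved far more than directions. The 4699 calls became 7178 with sample quality weights and 730 at a size of at least 1 log2 unit, and ranged from 1529 (without Col-0 replicate 2) to 5667 (without seu-3 replicate 3) as libraries were left out; leaving out Col-0 replicate 1 gave 2630, Col-0 replicate 3 gave 3016 and wox5-1 replicate 1 gave 1729. The 2393 rises became 1474 with the replicate block, 4096 with quality weights and 203 at the size threshold. As libraries were left out the rises ranged from 536 (Col-0 replicate 2) to 3310 (seu-3 replicate 3); leaving out Col-0 replicates 1 and 3 gave 1012 and 1370, and leaving out wox5-1 replicates 1 and 3 gave 547 and 1484. The 2306 falls became 527 at the size threshold and ranged from 993 (without Col-0 replicate 2) to 2357 (without seu-3 replicate 3), with 1182 without wox5-1 replicate 1. The cause of these moves was not tested. WOX5 had a log2 difference of -0.51, and of -2.38 with a pseudocount of 0.1 FPKM; leaving out a library gave -0.46 to -0.58. Replicate numbers were not taken as pairs: same-numbered wox5-1 and Col-0 libraries correlated at 0.02, 0.11 and -0.26 in their deviations from the group means. Pairs of other numbers ran from -0.32 (wox5-1 replicate 2 with Col-0 replicate 1) to 0.30 (wox5-1 replicate 3 with Col-0 replicate 1). With the replicate block 3237 genes were called, 1474 up and 1763 down. Among counts of lists, 1228 stayed within 1.5 times and 284 did not. Median-ratio scaling gave 2193 rises and 2482 falls and moved the median of all genes to 0.02. These values limit what can be said of groups with few stable calls, above all mitotic, histone and ribosomal protein genes. Depth limits genes near 1 FPKM, tissue length and hour of harvest are open in the labels, and 1 allele was profiled.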
